A study of Mus musculus with 16 samples.

Results

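Ribosome biogenesis was followed here through 34 genes that encode subunits of RNA polymerase I and the proteins that process ribosomal RNA and assemble it into ribosomal subunits. The genes were taken by name from what is known of their roles in this process, with earlier results of these data already known. All 34 were found among the 20295 genes of the count table. They fall into 6 roles: 5 subunits of RNA polymerase I (Pol I), 3 core proteins of the box C/D small nucleolar ribonucleoproteins (snoRNPs), 4 core proteins of the box H/ACA snoRNPs, 3 nucleolar chaperones and scaffolds, 9 proteins of the small-subunit processome, and 10 proteins of large-subunit assembly.

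RNA-seq counts were available for 16 samples of mouse brown adipocytes, differentiated in culture to day 7 from BAT-LgT preadipocytes, a brown fat line immortalized with SV40 large T antigen, a viral protein that binds p53 and the retinoblastoma protein. The study used inhibitors of fatty acid use to see which gene responses to lipolysis still occur when that use is blocked. Cells were pretreated for 1 h with DMSO vehicle, with 5 µM triacsin C (TC), an inhibitor of long-chain acyl-CoA synthetases, or with 50 µM etomoxir (ETO), an inhibitor of carnitine palmitoyltransferase 1, and were then stimulated for 3 h with vehicle or with 10 µM SR-3420, a ligand of ABHD5 that activates lipolysis. The SR-3420 concentration is the one in the sample labels, and the paper states a different one. The 6 groups were vehicle (2 samples), SR-3420 (2), TC (3), TC+SR-3420 (3), ETO (3) and ETO+SR-3420 (3). The counts used here held no column for replicate 1 of vehicle or replicate 2 of SR-3420, and neither was analysed. Total counts ranged from 9452861 (TC 1) to 25670624 (ETO+SR-3420 1).

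Pol I transcribes the ribosomal DNA repeats in the nucleolus into a long precursor RNA. Box C/D and box H/ACA snoRNPs guide ribose methylation and pseudouridylation of that precursor, the small-subunit processome cleaves and folds its 5' part, and a separate group of factors builds the large subunit around its 3' part. The process takes up much of the energy and transcription of a growing cell, the MYC transcription factor is a well-known activator of many of its genes, and brown adipocytes are better known for mitochondrial than for ribosomal output.

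The cell label was checked with marker genes. Values are counts per 1000000 counts of the library (CPM), scaled by the trimmed mean of M values. Fabp4, a fatty acid binding protein of adipocytes, was the most abundant of 9 brown adipocyte markers, and its CPM were 6447 and 7296 in vehicle, 4263 and 5294 with SR-3420, 8537, 8094 and 9223 with TC, 3026, 3282 and 4008 with TC+SR-3420, 6366, 6531 and 8855 with ETO and 3265, 3161 and 5648 with ETO+SR-3420. Fabp4 was high in every sample and lower in all TC+SR-3420 samples than in all TC samples, with no overlap. It fell with SR-3420 under TC (log2 fold change (log2FC) ± standard error -1.33 ± 0.23, adjusted p = 0.000575) and under ETO (-0.85 ± 0.22, adjusted p = 0.0142; edgeR quasi-likelihood test, Benjamini-Hochberg adjusted). Ucp1, the uncoupling protein that defines thermogenic brown fat, lay between 0.461 and 3.66 CPM, and Dio2, the deiodinase that activates thyroid hormone, was at 0 in 12 of the 16 samples. Adipocyte genes were thus abundant while these thermogenic markers were near the floor of detection. The summed CPM of the 9 markers were 12097 and 11446 in vehicle, 8637 and 8436 with SR-3420, 12944, 13553 and 13622 with TC, 4863, 5022 and 5456 with TC+SR-3420, 11762, 10974 and 12578 with ETO and 5948, 4692 and 7957 with ETO+SR-3420. The sum was lower in every SR-3420 sample than in every sample of the matched group without it, and of the 8 markers tested 1 fell with SR-3420 alone, 3 fell and 1 rose under TC, and 4 fell under ETO, where 2.79%, 19.7% and 12.8% of all genes fell and 4.75%, 17.3% and 12.5% rose. The sum is led by Fabp4 and does not show what other markers did with TC. In TC against vehicle 3 of the 8 fell, against 6.94% of all genes: Prdm16, a regulator of brown fat identity (-2.14 ± 0.29, adjusted p = 0.000255), Pparg, the main adipogenic transcription factor (-1.48 ± 0.19, adjusted p = 0.000182), and Ppargc1a, a coactivator of mitochondrial genes (-1.04 ± 0.26, adjusted p = 0.0196; edgeR quasi-likelihood test, Benjamini-Hochberg adjusted). The CPM of Pparg were 309 and 349 in vehicle, 168 and 205 with SR-3420, 114, 117 and 122 with TC, 110, 116 and 130 with TC+SR-3420, 237, 258 and 298 with ETO and 132, 124 and 202 with ETO+SR-3420, with all TC samples below both vehicle samples and all TC+SR-3420 samples below both SR-3420 samples. In TC added to SR-3420, 4 of the 8 fell, against 3.55% of all genes, and the median of the 8 was -0.95.

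Markers of other cell states were measured beside them. The summed CPM of 6 proliferating cell markers, of which Mcm2, a subunit of the replicative helicase, was the most abundant, were 866 and 876 in vehicle, 1398 and 1130 with SR-3420, 966, 1004 and 958 with TC, 1426, 1389 and 1387 with TC+SR-3420, 905, 833 and 859 with ETO and 1322, 1374 and 1182 with ETO+SR-3420. The sum was higher in each SR-3420 group than in its matched group without overlap, with 0, 1 and 0 of the 6 markers called up by edgeR in the comparisons without inhibitor, under TC and under ETO (DESeq2 called 0, 2 and 0, and 1, 3 and 2 had an unadjusted p under 0.05). Of all genes, edgeR called 4.75%, 17.3% and 12.5% up in these comparisons, and DESeq2 called 12.5%, 41.1% and 30.3% in either direction. An unadjusted p under 0.05, in either direction, was reached by 21.8%, 46.5% and 37.2%. The edgeR and DESeq2 calls in this list thus do not exceed those of all genes. At an unadjusted p under 0.05, the 3 of 6 under TC lie slightly above the 46.5%, in a list too short to set them apart. For 6 preadipocyte and fibroblast markers, led by Pdgfrb, a platelet-derived growth factor receptor, the sums were 406 and 353 in vehicle, 628 and 492 with SR-3420, 528, 448 and 411 with TC, 661, 572 and 484 with TC+SR-3420, 436, 351 and 269 with ETO and 710, 595 and 406 with ETO+SR-3420. SR-3420 samples were above both vehicle samples, the ranges under TC and under ETO overlapped, and 3 of the 6 markers rose with SR-3420 under TC and 3 under ETO, against 17.3% and 12.5% of all genes. The 5 macrophage and endothelial markers summed to between 3.97 and 18.5 CPM, highest in the 3 TC samples, with Cd68, a lysosomal membrane protein, the most abundant and Emr1 (Adgre1), Pecam1 and Cdh5 at 0 in 7, 2 and 3 samples. Cd68 rose with TC against vehicle (1.92 ± 0.27, adjusted p = 0.000366) and fell with SR-3420 under TC (-1.29 ± 0.22, adjusted p = 0.000651; edgeR quasi-likelihood test, Benjamini-Hochberg adjusted). The part of these marker shifts in the results on ribosome biogenesis was not tested, and in bulk samples fewer cells of a type and less RNA per cell cannot be told apart.

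All 34 genes passed the filter on low counts that left 12786 genes for testing. Their mean CPM ran from 10.5 for Fbl, the box C/D methyltransferase fibrillarin, to 771 for Ncl, the nucleolar protein nucleolin. Per kilobase of counted length the range was 5.80 CPM per kb (Polr1e) to 121 CPM per kb (Nhp2), with a median of 33.6 against 11.2 over all genes tested, and 31 of the 34 lay above that all-gene median. The genes are spread over 16 chromosomes. The GC content of their longest coding transcript ran from 42.1% (Nop58) to 59.8% (Rrp9), with a median of 50.6% against 50.8% over the genes tested. Dkc1, Wdr12, Bop1, Polr1e, Nop56, Nhp2 and Gnl3 overlap another gene on the opposite strand. Whether counting used strand is not stated, so reads from the shared bases cannot be told apart. The genomic spans share 2031 bases for Bop1 with Scx and 254 for Wdr12 with Carf, but 44 or fewer in each of the other pairs, so few bases are affected in Dkc1, Polr1e, Nop56, Nhp2 and Gnl3. Npm1 has many processed pseudogenes, and the handling of reads that match several places is not stated.

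Promoter sequences from RefSeq (build GRCm38.p6, whereas the counts are on mm9) were matched by symbol for 30 of the 34 genes, with 33 promoters. No entry was found for Fbl, Npm1, Rrp12 and Bop1. The 250 bases before the start site were searched on both strands for the canonical E-box CACGTG, the sequence that MYC and MAX bind, and for the ETS core CCGGAAG. The E-box occurs in 1978 of 32851 promoters of that length (6.02%) and among the 30 genes only in Nop2, 60 bases before the start. The ETS core occurs in 2269 promoters (6.91%) and in 6 of the 30 genes: Gar1, Heatr1, Nhp2, Nolc1, Nop2 and Polr1c, between 14 and 43 bases before the start. The letters do not overlap each other in Nop2. A match describes the letters in the window and is not evidence of binding. Shown are the promoter of Nop2, as the gene with the E-box, and, chosen after their values were seen, those of Nolc1, which rose in every SR-3420 comparison and has the ETS core, and of Nop58, which had the highest log2FC under TC and has neither. Nop2 lies at chr6:125131633-125131882, Nolc1 at chr19:46075597-46075846 and Nop58 at chr1:59684756-59685005, all on the plus strand. Capitals mark the motif matches.
Nop2: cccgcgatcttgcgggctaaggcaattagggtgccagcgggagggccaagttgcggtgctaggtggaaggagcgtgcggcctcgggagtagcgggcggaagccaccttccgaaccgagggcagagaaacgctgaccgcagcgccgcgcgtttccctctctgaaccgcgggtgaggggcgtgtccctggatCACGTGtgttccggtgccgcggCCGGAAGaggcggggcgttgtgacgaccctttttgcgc
Nolc1: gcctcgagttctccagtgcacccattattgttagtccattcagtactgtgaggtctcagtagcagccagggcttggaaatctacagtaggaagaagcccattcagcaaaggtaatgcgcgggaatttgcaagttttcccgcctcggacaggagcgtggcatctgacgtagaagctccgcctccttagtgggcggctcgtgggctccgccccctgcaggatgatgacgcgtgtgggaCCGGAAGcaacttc
Nop58: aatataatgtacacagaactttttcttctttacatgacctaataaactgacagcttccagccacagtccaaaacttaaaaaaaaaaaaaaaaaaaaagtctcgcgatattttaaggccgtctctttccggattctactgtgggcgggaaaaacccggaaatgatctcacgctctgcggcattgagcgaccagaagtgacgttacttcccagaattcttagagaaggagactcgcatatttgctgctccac

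The summed CPM of the 34 genes were 2863 and 2974 in vehicle, 3894 and 4044 with SR-3420, 3855, 3712 and 3677 with TC, 4930, 5105 and 5913 with TC+SR-3420, 2948, 3037 and 3261 with ETO and 3952, 4916 and 4544 with ETO+SR-3420. Every SR-3420 sample lay above every sample of the matched group without SR-3420, every TC sample lay above both vehicle samples, and the ETO range overlapped that of vehicle. TC+SR-3420 samples were the highest of all.

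**Figure D1:**
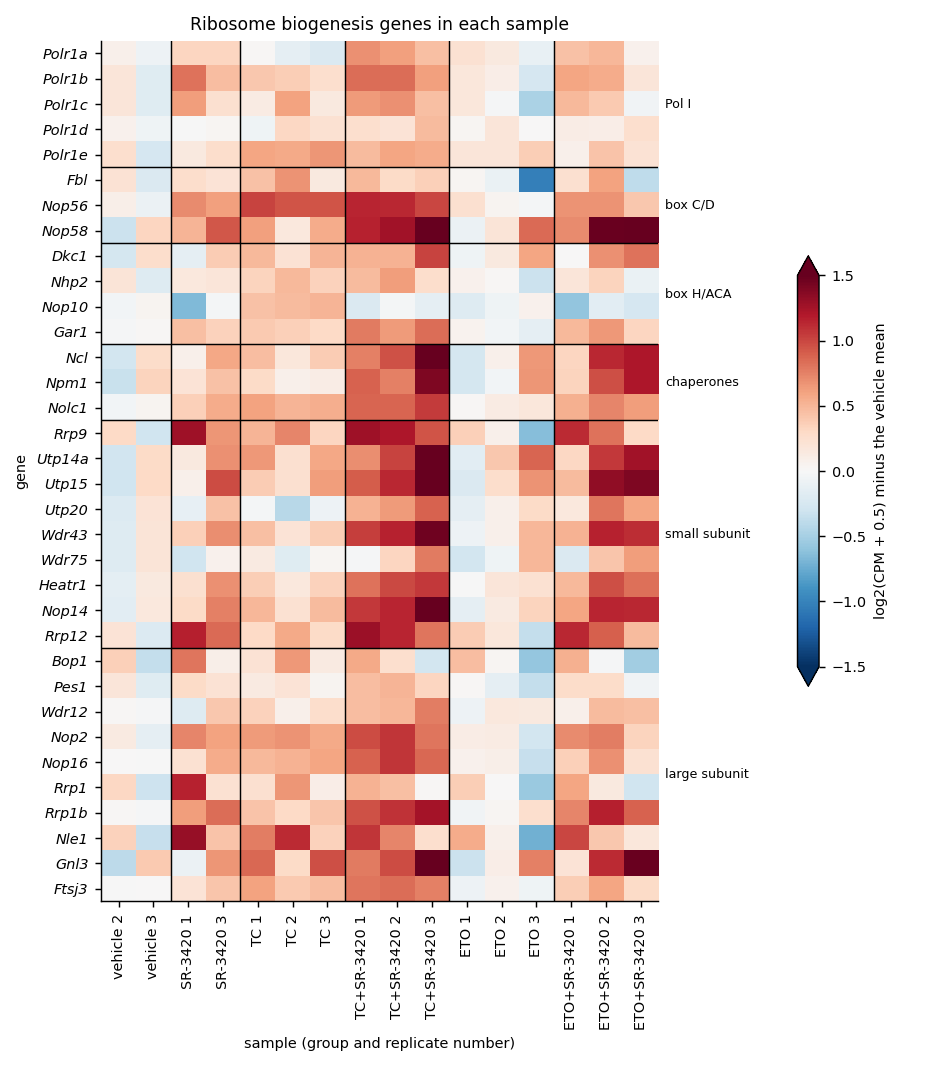
Heat map of the 34 genes (vertical axis, grouped by role) in the 16 samples (horizontal axis); colour is the log2 of CPM plus 0.5 minus the mean of the vehicle samples. For the sum of the 34 genes the TC+SR-3420 samples, at 4930 CPM or more, are the highest and the vehicle samples, at 2863 and 2974 CPM, are among the lowest.

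With SR-3420 alone, 5 of the 34 genes were called, each of them up, where 4.75% of all genes tested were called up and 2.79% down (adjusted p under 0.05, edgeR quasi-likelihood test, Benjamini-Hochberg adjusted). The 5 were Nop56, Rrp1b, Nop2, Rrp12 and Nolc1. The median log2FC of the 34 was 0.42 against 0.00 over all genes tested, and 32 of 34 values were above 0. DESeq2 called 7, and 12.5% of all genes. The comparison rests on 4 samples: 1 gene was called without vehicle 2, without SR-3420 1 or without SR-3420 3, and 0 without vehicle 3, the lone sample left being assumed to vary like the other groups. A fit of edgeR on these 2 groups by themselves called 0. For such fits and those with samples left out, here and below, the share of all genes called is not given. These counts by themselves do not tell fewer calls among the 34 from fewer calls over all genes.

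Under TC, SR-3420 raised 14 of the 34 genes, against 17.3% of all genes tested, and lowered 1, against 19.7%. The median log2FC was 0.40 against 0.02, and 28 of 34 values were above 0. Besides Nop58, Npm1, Ncl, Nop14, Utp20, Wdr43, Rrp1b, Rrp12, Polr1a and Heatr1, with log2FC of 0.66 or more, the genes that rose were Gar1, Nop16, Nolc1 and Ftsj3. Nop10 fell. The count of 15 in both directions became 9 without TC+SR-3420 3, and between 10 and 13 when any other sample was left out. DESeq2 called 19, and 41.1% of all genes.

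Under ETO, 12 of the 34 genes were called with SR-3420, each of them up, where 12.5% of all genes tested were called up and 12.8% down. The median log2FC was 0.50 against 0.01, and 32 of 34 values were above 0. The TC and ETO comparisons share no samples. Nop58, Gar1, Nolc1, Wdr43, Heatr1, Nop14, Rrp12, Nop16, Rrp1b and Ftsj3 rose in both, which is 10 of the 14 genes raised under TC (71.4%) and of the 12 raised under ETO (83.3%). Over all genes tested, 1172 (9.17%) rose in both, which is 53.1% of those raised under TC and 73.4% of those raised under ETO, so an overlap of this kind is common to the genes tested. In at least 1 of the 3 SR-3420 comparisons 16 of the 34 genes rose, against 20.8% of all genes tested, and 3 of them, Nolc1, Rrp12 and Rrp1b, rose in each, against 4.09%. The ETO comparison called 7 genes without ETO+SR-3420 2 and 15 without ETO+SR-3420 1, and a fit on its own 2 groups called 1, again without shares of all genes. DESeq2 called 15, and 30.3% of all genes.

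With TC in the absence of SR-3420, 5 of the 34 genes were called, each of them up, where 4.77% of all genes tested were called up and 6.94% down. These were Nop56, Nop2, Polr1e, Nolc1 and Ftsj3. The median log2FC was 0.38 against 0.07 over all genes tested. The count was 1 without vehicle 3, 2 without vehicle 2 or TC 1, and 3 without TC 2 or TC 3. A fit on the 2 groups by themselves called 3. The comparison of SR-3420 with vehicle and that of TC with vehicle use the same 2 vehicle samples. TC added to SR-3420 raised Nolc1 and Ftsj3, 2 of the 34, where 1.02% of all genes tested were called up and 3.55% down. The median was 0.40 against 0.02. The edgeR count was 0 when a single sample was left out, be it SR-3420 1, SR-3420 3, TC+SR-3420 1, TC+SR-3420 2 or TC+SR-3420 3, while on all samples 14 genes had an unadjusted p under 0.05, as did 19.5% of all genes, and DESeq2 called 7, and 9.62% of all genes.

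ETO against vehicle called 0 of the 34 genes by edgeR and 0 by DESeq2, and 0 had an unadjusted p under 0.05, where edgeR called 0.0235% of all genes tested (3 genes), DESeq2 called 0.133% and 2.21% had an unadjusted p under 0.05. The median log2FC was 0.08 against 0.01; leaving out a sample brought it to 0.06 without vehicle 2, ETO 1 or ETO 2, 0.04 without ETO 3 and 0.01 without vehicle 3. ETO added to SR-3420 gave 0 calls by edgeR, 0 by DESeq2 and 0 at an unadjusted p under 0.05, with 0.00782% of all genes called by edgeR (1 gene), 0.704% by DESeq2 and 10.0% at an unadjusted p under 0.05, and a median of 0.10 against 0.00. Whether an inhibitor changed the response to SR-3420 was tested directly as a difference of responses. For TC minus no inhibitor edgeR called 0 of the 34, with 2.51% of all genes called, a median difference of 0.01 against -0.04, 1 gene at an unadjusted p under 0.05 (16.7% of all genes) and 0 by DESeq2 (6.51%). For ETO minus no inhibitor edgeR called 0, with 0% of all genes called, a median of 0.08 against 0.00, 0 at an unadjusted p under 0.05 (307 of the 12786 genes tested) and 0 by DESeq2 (0.0704%). For TC minus ETO edgeR called 0, with 2.29% of all genes called, a median of -0.07 against -0.06, 2 at an unadjusted p under 0.05 (12.5% of all genes) and 0 by DESeq2 (5.33%). A difference that was not called is not shown to be absent.

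**Figure D2:**
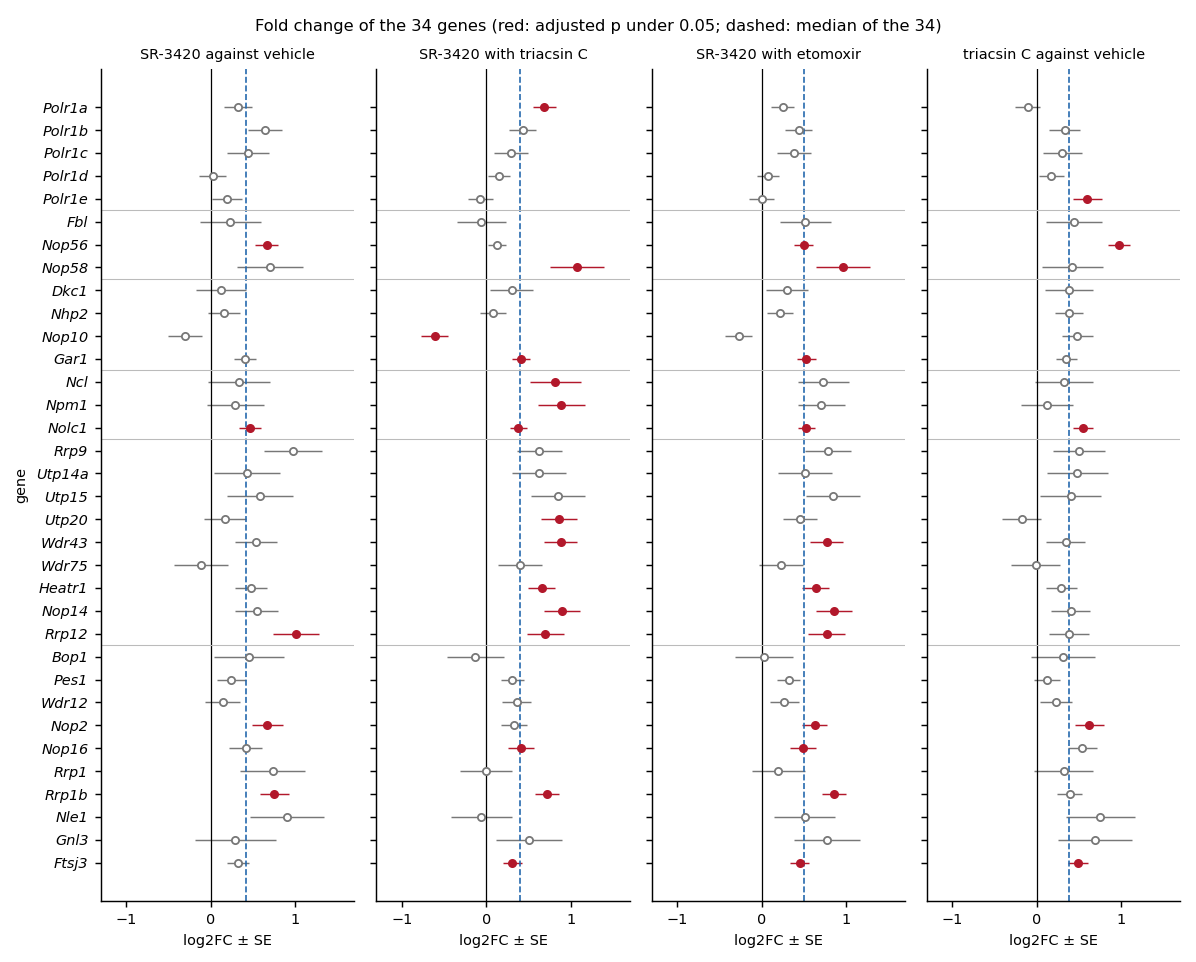
Log2FC of the 34 genes (vertical axis, grouped by role) in SR-3420 against vehicle, SR-3420 under TC, SR-3420 under ETO and TC against vehicle, with bars of 1 standard error; red points have an adjusted p under 0.05 by edgeR and the dashed line is the median of the 34. Points lie to the right of 0 for 32, 28, 32 and 31 of the 34 genes.

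Polr1a encodes the largest catalytic subunit of Pol I (chr6:71859047-71929355, plus strand, mm9). Its CPM were 162 and 146 in vehicle, 193 and 192 with SR-3420, 156, 140 and 133 with TC, 247, 236 and 210 with TC+SR-3420, 181, 171 and 143 with ETO and 209, 217 and 161 with ETO+SR-3420. TC+SR-3420 samples were all above the TC samples, SR-3420 samples were above both vehicle samples, and the ETO and ETO+SR-3420 ranges overlapped. Polr1a rose with SR-3420 under TC (log2FC 0.69 ± 0.14, adjusted p = 0.00147, edgeR quasi-likelihood test, Benjamini-Hochberg adjusted), and the call held without each of the 6 samples in turn. Without inhibitor the log2FC was 0.32 ± 0.17 (adjusted p = 0.281, edgeR, Benjamini-Hochberg).

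Polr1e encodes a subunit of the heterodimer that Pol I uses in initiation and elongation (chr4:45031481-45047151, plus strand). Its CPM were 18.9 and 13.3 in vehicle, 17.7 and 19.2 with SR-3420, 24.1, 23.8 and 25.5 with TC, 22.3, 24.1 and 23.5 with TC+SR-3420, 18.1, 18.0 and 20.7 with ETO and 16.8, 21.5 and 18.5 with ETO+SR-3420. TC samples were above both vehicle samples, TC+SR-3420 samples were above both SR-3420 samples, and adding SR-3420 gave overlapping ranges under every pretreatment. Polr1e rose with TC against vehicle (0.60 ± 0.17, adjusted p = 0.0325, edgeR quasi-likelihood test, Benjamini-Hochberg adjusted); the call was lost without vehicle 3 (0.37), TC 1 (0.61), TC 2 (0.62) or TC 3 (0.57). Polr1c, shared by Pol I and Pol III (chr17:46380869-46384994, minus strand), had the highest level per length of the 5 subunits, 51.9 CPM per kb. Its CPM were 62.9 and 48.8 in vehicle, 85.7 and 65.8 with SR-3420, 60.2, 84.2 and 61.6 with TC, 86.8, 89.4 and 76.2 with TC+SR-3420, 62.3, 54.7 and 39.9 with ETO and 77.9, 72.9 and 53.6 with ETO+SR-3420. SR-3420 samples were above vehicle, the TC and ETO pairs overlapped, and neither edgeR nor DESeq2 called it in any comparison (log2FC 0.44 ± 0.25 without inhibitor). Polr1b, the other large catalytic subunit, ranged from 44.2 to 95.2 CPM, with log2FC of 0.64, 0.43 and 0.44 for SR-3420 without inhibitor, under TC and under ETO. Polr1d, also shared with Pol III, ranged from 20.8 to 30.4 CPM, with 0.02, 0.15 and 0.08. Neither was called by edgeR, while DESeq2 called Polr1b in each of the 3 (adjusted p = 0.0272, 0.0244 and 0.0381). By edgeR 1 of the 5 Pol I subunits rose with SR-3420 in at least 1 comparison, a share near the 20.8% of all genes.

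Among the box C/D proteins, Nop58, a core scaffold of the particle (chr1:59741850-59768354, plus strand), had CPM of 52.0 and 81.4 in vehicle, 92.6 and 124 with SR-3420, 99.5, 72.6 and 95.7 with TC, 145, 157 and 265 with TC+SR-3420, 61.2, 74.3 and 118 with ETO and 107, 183 and 205 with ETO+SR-3420. SR-3420 samples were above vehicle and TC+SR-3420 samples above TC without overlap, whereas 1 ETO+SR-3420 sample, replicate 1, lay within the ETO range. TC+SR-3420 3 was far above its replicates. Nop58 rose with SR-3420 under TC (1.08 ± 0.32, adjusted p = 0.0167) and under ETO (0.97 ± 0.32, adjusted p = 0.0400; edgeR quasi-likelihood test, Benjamini-Hochberg adjusted). The first call was lost without TC 2 (0.95) or TC+SR-3420 3 (0.76), the other without ETO 1 (0.78), ETO 2 (0.88), ETO+SR-3420 2 (0.88) or ETO+SR-3420 3 (0.78). Its promoter holds neither motif.

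Nop56, the partner scaffold of Nop58 (chr2:130100148-130105049, plus strand), had the highest level per length among the box C/D proteins, 74.6 CPM per kb. Its CPM were 95.6 and 84.0 in vehicle, 146 and 138 with SR-3420, 181, 173 and 173 with TC, 199, 197 and 180 with TC+SR-3420, 106, 92.3 and 88.0 with ETO and 143, 143 and 118 with ETO+SR-3420. Vehicle and ETO samples were low, SR-3420 samples were above vehicle, all TC samples were above all vehicle samples, ETO+SR-3420 samples were above ETO samples, and the TC and TC+SR-3420 ranges overlapped. Nop56 rose with SR-3420 without inhibitor (0.66 ± 0.14, adjusted p = 0.0117), under ETO (0.50 ± 0.11, adjusted p = 0.00624) and with TC alone (0.97 ± 0.13, adjusted p = 0.000276; edgeR quasi-likelihood test, Benjamini-Hochberg adjusted). Under TC the SR-3420 log2FC was 0.13 ± 0.11. The difference of those responses, TC minus none, was -0.53 ± 0.18 (adjusted p = 0.144, edgeR, Benjamini-Hochberg). The call for SR-3420 alone was lost without vehicle 3 (0.58) or SR-3420 1 (0.62); the calls under ETO and for TC held without each sample in turn. Nop56 hosts small nucleolar RNAs in its introns and shares 5 bases with Idh3b on the other strand. Fbl ranged from 4.23 to 14.9 CPM and was not called by edgeR or DESeq2, with log2FC of 0.23, -0.06 and 0.52 for SR-3420 without inhibitor, under TC and under ETO.

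Nop10, the smallest protein of the box H/ACA core (chr2:112102083-112103055, plus strand), was the only one of the 34 genes that fell. Its CPM were 56.7 and 59.9 in vehicle, 36.8 and 57.3 with SR-3420, 79.3, 81.1 and 83.4 with TC, 49.9, 57.2 and 52.8 with TC+SR-3420, 50.8, 55.9 and 61.0 with ETO and 38.6, 52.1 and 48.8 with ETO+SR-3420. All TC samples were above all vehicle samples and above all TC+SR-3420 samples, while SR-3420 3 lay within the vehicle range and ETO+SR-3420 2 within the ETO range. Nop10 fell with SR-3420 under TC (-0.61 ± 0.16, adjusted p = 0.00902, edgeR quasi-likelihood test, Benjamini-Hochberg adjusted), and the call held without each of the 6 samples in turn. Its log2FC for SR-3420 without inhibitor was -0.31 ± 0.20 and under ETO -0.27 ± 0.16, and the difference TC minus none was -0.30 ± 0.25 (adjusted p = 0.561, edgeR, Benjamini-Hochberg).

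Gar1, a core protein of the same particle (chr3:129527830-129534314, minus strand), had CPM of 50.9 and 52.6 in vehicle, 71.0 and 65.8 with SR-3420, 68.0, 66.5 and 63.8 with TC, 89.0, 81.0 and 92.7 with TC+SR-3420, 53.6, 50.3 and 47.2 with ETO and 72.6, 81.3 and 64.9 with ETO+SR-3420. Each SR-3420 group was above its matched group without overlap, and TC samples were above vehicle. Gar1 rose with SR-3420 under TC (0.41 ± 0.11, adjusted p = 0.0108) and under ETO (0.53 ± 0.11, adjusted p = 0.00337; edgeR quasi-likelihood test, Benjamini-Hochberg adjusted), and both calls held without each sample in turn. Without inhibitor its log2FC was 0.40 ± 0.13 (adjusted p = 0.0914 by edgeR and 0.0189 by DESeq2, Benjamini-Hochberg). Nhp2, which binds the guide RNA of the particle (chr11:51433275-51437216, plus strand), had the highest level per length of all 34 genes, 121 CPM per kb. Its CPM were 115 and 87.4 in vehicle, 112 and 114 with SR-3420, 126, 140 and 128 with TC, 139, 155 and 120 with TC+SR-3420, 104, 102 and 80.0 with ETO and 113, 126 and 93.6 with ETO+SR-3420. TC samples were above vehicle, the SR-3420 ranges overlapped those of their matched groups, and neither edgeR nor DESeq2 called it in any comparison (log2FC 0.08 ± 0.15 for SR-3420 under TC). Dkc1, the pseudouridine synthase dyskerin, ranged from 56.7 to 139 CPM and was not called by edgeR or DESeq2, with log2FC of 0.12, 0.30 and 0.30 for SR-3420 without inhibitor, under TC and under ETO.

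The 3 nucleolar chaperones and scaffolds each rose in at least 1 SR-3420 comparison, where 20.8% of all genes did. Npm1, nucleophosmin, a histone and ribosome assembly chaperone (chr11:33052498-33063206, minus strand), had CPM of 77.9 and 125 in vehicle, 113 and 134 with SR-3420, 120, 104 and 106 with TC, 183, 167 and 261 with TC+SR-3420, 82.0, 95.7 and 156 with ETO and 124, 194 and 229 with ETO+SR-3420, and 99.9 CPM per kb was the highest level per length among the 3. TC+SR-3420 samples were above TC without overlap, with replicate 3 far above the others. The other SR-3420 ranges overlapped their matched groups, and replicate 3 was the highest sample in every group except TC. Npm1 rose with SR-3420 under TC (0.89 ± 0.28, adjusted p = 0.0237, edgeR quasi-likelihood test, Benjamini-Hochberg adjusted), but not without TC 2 (0.85), TC 3 (0.86) or TC+SR-3420 3 (0.67). Ncl, nucleolin, which binds ribosomal RNA and its genes (chr1:88241294-88256030, minus strand), had CPM of 417 and 615 in vehicle, 535 and 760 with SR-3420, 697, 570 and 661 with TC, 859, 982 and 1570 with TC+SR-3420, 421, 535 and 798 with ETO and 632, 1110 and 1170 with ETO+SR-3420. TC+SR-3420 3 was again the highest sample, TC+SR-3420 did not overlap TC, and the other SR-3420 ranges overlapped their matched groups. Ncl rose with SR-3420 under TC (0.82 ± 0.30, adjusted p = 0.0473, edgeR quasi-likelihood test, Benjamini-Hochberg adjusted), but not without TC 1 (0.88), TC 2 (0.74), TC 3 (0.84), TC+SR-3420 2 (0.96) or TC+SR-3420 3 (0.52).

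Nolc1, which encodes Nopp140, a scaffold that carries snoRNPs (chr19:46150337-46160033, plus strand), was called in more comparisons than any other of the 34 genes, and its values are given for that reason, chosen after they were seen. Its CPM were 168 and 178 in vehicle, 222 and 255 with SR-3420, 264, 247 and 252 with TC, 316, 316 and 359 with TC+SR-3420, 174, 189 and 195 with ETO and 250, 288 and 268 with ETO+SR-3420. The replicates lay close together, each SR-3420 group was above its matched group, and TC was above vehicle, all without overlap. Nolc1 rose with SR-3420 without inhibitor (0.46 ± 0.13, adjusted p = 0.0446), under TC (0.38 ± 0.10, adjusted p = 0.0122) and under ETO (0.53 ± 0.10, adjusted p = 0.00269; edgeR quasi-likelihood test, Benjamini-Hochberg adjusted). It also rose with TC against vehicle (0.55 ± 0.12, adjusted p = 0.00741) and with TC added to SR-3420 (0.47 ± 0.12, adjusted p = 0.0389; same test and adjustment in edgeR). The call under ETO held without each sample in turn. The call without inhibitor was lost without vehicle 2 (0.42), vehicle 3 (0.51), SR-3420 1 (0.56) or SR-3420 3 (0.36), that under TC without TC+SR-3420 3 (0.31), and that for TC alone without vehicle 2 (0.51) or vehicle 3 (0.60). For TC added to SR-3420 the call was lost without SR-3420 1 (0.37), SR-3420 3 (0.57), TC+SR-3420 1 (0.50), TC+SR-3420 2 (0.50) or TC+SR-3420 3 (0.41).

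Of the 9 small-subunit processome genes, 5 rose with SR-3420 in at least 1 comparison, where 20.8% of all genes did. Rrp12, a HEAT-repeat protein of pre-40S maturation and export (chr19:41937341-41970643, minus strand), had CPM of 76.5 and 57.5 in vehicle, 150 and 120 with SR-3420, 81.5, 98.6 and 81.2 with TC, 162, 147 and 116 with TC+SR-3420, 86.3, 74.5 and 51.8 with ETO and 146, 124 and 92.1 with ETO+SR-3420. Every SR-3420 sample was above every sample of its matched group. Rrp12 rose without inhibitor (1.01 ± 0.27, adjusted p = 0.0360), under TC (0.70 ± 0.22, adjusted p = 0.0217) and under ETO (0.77 ± 0.22, adjusted p = 0.0200; edgeR quasi-likelihood test, Benjamini-Hochberg adjusted). The call without inhibitor was lost without vehicle 2 (1.23), vehicle 3 (0.83), SR-3420 1 (0.85) or SR-3420 3 (1.16), that under TC without TC 1 (0.65), TC 3 (0.65) or TC+SR-3420 1 (0.59), and that under ETO without ETO 3 (0.58), ETO+SR-3420 1 (0.61) or ETO+SR-3420 2 (0.75). Nop14, needed for processing at the 5' end of the small-subunit RNA (chr5:34981185-35002797, minus strand), had CPM of 60.4 and 75.6 in vehicle, 82.5 and 115 with SR-3420, 96.0, 79.0 and 94.4 with TC, 142, 150 and 213 with TC+SR-3420, 61.3, 74.0 and 85.1 with ETO and 102, 150 and 148 with ETO+SR-3420. Again every SR-3420 sample was above its matched group, with TC+SR-3420 3 the highest. Nop14 rose under TC (0.90 ± 0.21, adjusted p = 0.00422) and under ETO (0.86 ± 0.21, adjusted p = 0.00851; edgeR quasi-likelihood test, Benjamini-Hochberg adjusted), and both calls held without each sample in turn.

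Rrp9, which binds the U3 small nucleolar RNA (chr9:106379640-106387746, plus strand), had the highest level per length of the processome genes, 49.8 CPM per kb. Its CPM were 59.7 and 39.4 in vehicle, 117 and 76.9 with SR-3420, 69.0, 80.9 and 60.5 with TC, 118, 113 and 93.7 with TC+SR-3420, 62.5, 51.3 and 31.1 with ETO and 106, 85.4 and 59.6 with ETO+SR-3420. SR-3420 1 was well above SR-3420 3, ETO+SR-3420 3 lay within the ETO range, and TC+SR-3420 samples were above TC. Its log2FC of 0.97, 0.63 and 0.79 without inhibitor, under TC and under ETO were not called by edgeR, the last with an adjusted p of 0.0501 (Benjamini-Hochberg), while DESeq2 called it under ETO (adjusted p = 0.0251). Wdr43, a WD-repeat protein of the t-UTP group, ranged from 74.4 to 235 CPM and rose under TC (0.88 ± 0.20) and ETO (0.77 ± 0.20). The call under ETO was lost without ETO 1 (0.65), ETO 2 (0.72) or ETO+SR-3420 2 (0.66). Heatr1, of the same group, which links transcription by Pol I to processing, ranged from 54.4 to 126 CPM and rose under TC (0.66 ± 0.16) and ETO (0.64 ± 0.16), the latter not without ETO+SR-3420 2 (0.53). Utp20, a large HEAT-repeat protein, ranged from 87.4 to 217 CPM and rose with SR-3420 under TC (0.86 ± 0.21). Its log2FC of 0.17 ± 0.25 without inhibitor and 0.46 ± 0.20 under ETO were not called. The differences TC minus none (0.69 ± 0.32, adjusted p = 0.306) and TC minus ETO (0.40 ± 0.29, adjusted p = 0.685, edgeR, Benjamini-Hochberg) were not called either. Utp14a, Utp15 and Wdr75 were not called by edgeR. DESeq2 called Utp15 under TC (adjusted p = 0.0266) and under ETO (0.0415). Utp15 had log2FC of 0.58, 0.85 and 0.85 without inhibitor, under TC and under ETO, Utp14a had 0.43, 0.63 and 0.51, and Wdr75 had -0.12, 0.40 and 0.23.

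Of the 10 large-subunit assembly genes, 4 rose with SR-3420 in at least 1 comparison, where 20.8% of all genes did. Rrp1b, a nucleolar protein related to Rrp1 (chr17:32173107-32199807, plus strand), had CPM of 39.4 and 38.5 in vehicle, 60.5 and 70.2 with SR-3420, 52.6, 48.1 and 52.0 with TC, 75.7, 83.1 and 93.2 with TC+SR-3420, 37.6, 39.9 and 46.4 with ETO and 65.1, 87.6 and 72.2 with ETO+SR-3420. Each SR-3420 group was above its matched group and TC was above vehicle, without overlap. Rrp1b rose with SR-3420 without inhibitor (0.75 ± 0.17, adjusted p = 0.0164), under TC (0.72 ± 0.14, adjusted p = 0.00110) and under ETO (0.86 ± 0.14, adjusted p = 0.000596; edgeR quasi-likelihood test, Benjamini-Hochberg adjusted). The calls under TC and ETO held without each sample in turn, and that without inhibitor was lost without vehicle 2 (0.76), vehicle 3 (0.73) or SR-3420 3 (0.64). Nop2, the methyltransferase of a cytosine in the large-subunit RNA (chr6:125081901-125094771, plus strand), whose promoter holds the E-box, had CPM of 154 and 128 in vehicle, 234 and 214 with SR-3420, 219, 225 and 209 with TC, 278, 296 and 246 with TC+SR-3420, 152, 153 and 116 with ETO and 231, 240 and 178 with ETO+SR-3420. Each SR-3420 group was above its matched group and TC was above vehicle. Nop2 rose with SR-3420 without inhibitor (0.67 ± 0.18, adjusted p = 0.0392), under ETO (0.63 ± 0.15, adjusted p = 0.00705) and with TC against vehicle (0.62 ± 0.17, adjusted p = 0.0258; edgeR quasi-likelihood test, Benjamini-Hochberg adjusted). Under TC its SR-3420 log2FC was 0.33 ± 0.15 (adjusted p = 0.0921 by edgeR and 0.0466 by DESeq2, Benjamini-Hochberg). The call under ETO held without each sample in turn. That without inhibitor was lost without vehicle 2 (0.80), vehicle 3 (0.54), SR-3420 1 (0.60) or SR-3420 3 (0.73), and that for TC without vehicle 2 (0.76), vehicle 3 (0.50), TC 1 (0.62), TC 2 (0.60) or TC 3 (0.65).

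Rrp1 (chr10:77863107-77875788, minus strand), a nucleolar protein of pre-60S processing, had the highest level per length of these 10 genes, 120 CPM per kb. Its CPM were 244 and 159 in vehicle, 439 and 232 with SR-3420, 232, 312 and 211 with TC, 284, 270 and 199 with TC+SR-3420, 255, 198 and 134 with ETO and 296, 217 and 160 with ETO+SR-3420. SR-3420 1 was far above all other samples, replicate 3 was the lowest of every group, all SR-3420 ranges overlapped their matched groups, and neither edgeR nor DESeq2 called it in any comparison. Ftsj3, a methyltransferase of the precursor RNA, was 1 of the 2 genes that rose with TC added to SR-3420, and its values are given for that reason, chosen after they were seen. Its CPM were 96.4 and 96.5 in vehicle, 112 and 129 with SR-3420, 147, 126 and 133 with TC, 168, 172 and 164 with TC+SR-3420, 91.6, 100 and 92.0 with ETO and 125, 145 and 118 with ETO+SR-3420. Each SR-3420 group was above its matched group, TC was above vehicle and TC+SR-3420 was above SR-3420. Ftsj3 rose with SR-3420 under TC (0.31 ± 0.11) and under ETO (0.45 ± 0.11), with TC against vehicle (0.49 ± 0.12) and with TC added to SR-3420 (0.48 ± 0.12, adjusted p = 0.0424, edgeR quasi-likelihood test, Benjamini-Hochberg adjusted). The call under ETO held without each sample in turn. The call under TC was lost without TC 2 (0.26), TC 3 (0.29), TC+SR-3420 1 (0.31), TC+SR-3420 2 (0.34) or TC+SR-3420 3 (0.33), and that for TC alone without vehicle 2 (0.49), vehicle 3 (0.49) or TC 1 (0.43). For TC added to SR-3420 it was lost without SR-3420 1 (0.38), SR-3420 3 (0.59), TC+SR-3420 1 (0.48), TC+SR-3420 2 (0.46) or TC+SR-3420 3 (0.50).

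Nop16, a pre-60S protein, ranged from 33.1 to 89.6 CPM and rose with SR-3420 under TC (0.41 ± 0.15) and under ETO (0.49 ± 0.15). The call under TC was lost without TC 1 (0.39), TC 2 (0.41), TC 3 (0.44), TC+SR-3420 1 (0.44), TC+SR-3420 2 (0.39) or TC+SR-3420 3 (0.46), and the call under ETO without ETO 3 (0.36) or ETO+SR-3420 2 (0.35). Pes1, Bop1 and Wdr12 encode the 3 proteins of the PeBoW complex, which acts in large-subunit processing, and none was called by edgeR in any comparison. Their log2FC for SR-3420 under TC were 0.31, -0.13 and 0.36, and under ETO 0.32, 0.03 and 0.27. DESeq2 gave Pes1 an adjusted p of 0.0422 under TC. Gnl3, the GTPase nucleostemin, ranged from 30.1 to 135 CPM with log2FC of 0.29, 0.51 and 0.78 without inhibitor, under TC and under ETO. Nle1, a WD-repeat protein of the pre-60S particle, ranged from 16.2 to 67.5 CPM with 0.90, -0.06 and 0.51, and neither was called by edgeR or DESeq2.

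**Figure D3:**
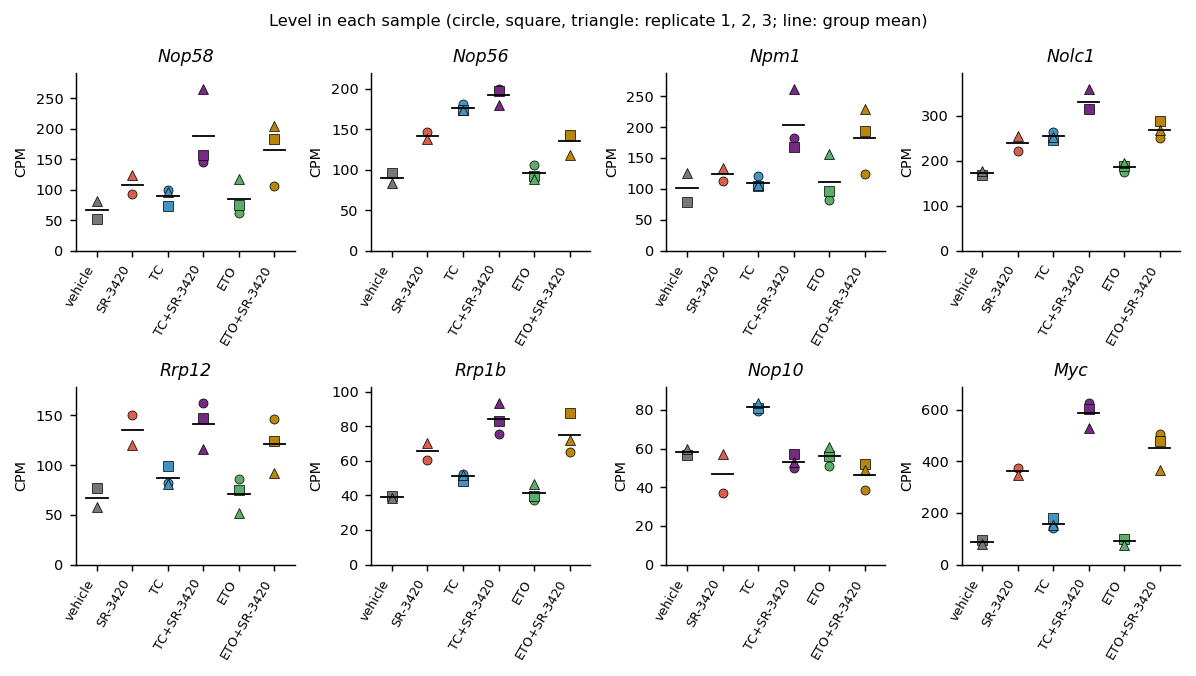
CPM (vertical axes, starting at 0) of Nop58, Nop56, Npm1, Nolc1, Rrp12, Rrp1b, Nop10 and Myc in the 6 groups (horizontal axes); points are samples, with a shape for each replicate number, and lines are group means. SR-3420 samples lie above their matched groups without overlap for Nolc1, Rrp12, Rrp1b and Myc, and TC samples lie highest for Nop10.

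Other genes of the pathway were read as lists, for which samples were not left out in turn. Their counts are read against the shares of all genes tested, which for SR-3420 alone, under TC and under ETO were 4.75%, 17.3% and 12.5% up and 2.79%, 19.7% and 12.8% down. Of 10 further Pol I subunits and initiation factors tested, 1 rose with SR-3420 alone, 3 under TC and 4 under ETO, and the calls were all up. Tcof1, the nucleolar protein treacle that supports ribosomal DNA transcription, rose in each (0.80 ± 0.16, 1.12 ± 0.13 and 0.96 ± 0.13). Twistnb, the older symbol of a Pol I subunit, rose under TC (0.56 ± 0.17) and ETO (0.74 ± 0.17), as did Cd3eap, also a Pol I subunit (0.43 ± 0.13 and 0.53 ± 0.13). Of 5 subunits shared by the 3 polymerases, 0 rose in the 3 SR-3420 comparisons by edgeR, and Polr2l fell under TC (-0.77 ± 0.21). At an unadjusted p under 0.05 there were 0, 1 and 1, against 21.8%, 46.5% and 37.2% of all genes. DESeq2 called 0, 1 and 1, against 12.5%, 41.1% and 30.3%. Of 11 Pol III subunits, 1 rose and 1 fell with SR-3420 alone, 2 rose and 1 fell under TC, and 1 rose and 1 fell under ETO. The shares up, 9.09%, 18.2% and 9.09%, are not set apart from those of all genes in a list where 1 gene makes up 9.09%. Polr3d rose in each (0.78 ± 0.17, 0.75 ± 0.14 and 0.84 ± 0.14), and Polr3gl, a form of the subunit that Polr3g also supplies, fell in each (-0.61 ± 0.17, -0.89 ± 0.14 and -0.58 ± 0.13). Polr3b, a large catalytic subunit of Pol III, rose with SR-3420 under TC (0.47 ± 0.10) and fell with TC against vehicle (-0.61 ± 0.11).

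Of 37 further small-subunit factors, 2 rose with SR-3420 alone (5.41%, against 4.75% of all genes), 10 under TC (27.0%, against 17.3%) and 6 under ETO (16.2%, against 12.5%), all calls being up, and their median log2FC were 0.25, 0.24 and 0.27. Cirh1a, the older symbol of a t-UTP protein, rose in each (0.72 ± 0.11, 0.82 ± 0.09 and 0.66 ± 0.09). Nob1, the endonuclease that makes the 3' end of the small-subunit RNA, rose with SR-3420 alone (0.73 ± 0.20). Ddx10, an RNA helicase, rose under TC (1.09 ± 0.25), and Tsr1, a GTPase-like pre-40S factor, rose under ETO (0.67 ± 0.14). Of 42 further large-subunit factors tested, 3 rose with SR-3420 alone (7.14%, against 4.75% of all genes), 14 under TC (33.3%, against 17.3%) and 12 under ETO (28.6%, against 12.5%), all calls being up, and the medians were 0.29, 0.48 and 0.46. Urb2, a nucleolar pre-60S protein, rose without inhibitor (0.72 ± 0.14), as did Nip7, a pre-60S factor (0.67 ± 0.15). Mdn1, the large AAA ATPase that remodels pre-60S particles, rose under TC (0.88 ± 0.12), and Rrs1, which recruits the 5S particle, rose under ETO (0.85 ± 0.26). Of 11 RNA exosome subunits, edgeR called 0 with SR-3420 alone. At an unadjusted p under 0.05 there were 4, against 21.8% of all genes, and DESeq2 called 0, against 12.5%. Under TC 2 rose (18.2%, against 17.3% of all genes) and 1 fell, and under ETO 1 rose (9.09%, against 12.5%), so the shares up lay near or below those of all genes. Dis3, a catalytic subunit, rose under TC (1.15 ± 0.32), and Exosc2, an RNA-binding cap subunit, rose under TC (0.34 ± 0.12) and ETO (0.46 ± 0.12).

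Myc encodes the transcription factor best known for activating ribosome biogenesis genes. Its CPM were 96.1 and 80.4 in vehicle, 375 and 349 with SR-3420, 140, 179 and 154 with TC, 625, 604 and 530 with TC+SR-3420, 94.8, 99.6 and 76.8 with ETO and 507, 477 and 366 with ETO+SR-3420. Every SR-3420 sample was far above every sample of its matched group, and TC samples were above vehicle. Myc rose with SR-3420 without inhibitor (2.04 ± 0.19, adjusted p = 5.37e-05), under TC (1.89 ± 0.16, adjusted p = 3.98e-06) and under ETO (2.32 ± 0.16, adjusted p = 1.49e-06; edgeR quasi-likelihood test, Benjamini-Hochberg adjusted). It also rose with TC against vehicle (0.84 ± 0.18) and with TC added to SR-3420 (0.69 ± 0.17), while ETO against vehicle gave 0.03 ± 0.17 and was not called. Mycl, a paralog of Myc, fell in the 3 SR-3420 comparisons (-0.86 ± 0.23, -0.95 ± 0.19 and -0.83 ± 0.19). Mxd4, a repressor that competes with MYC for MAX, fell under TC (-1.10 ± 0.36), and Mxi1, of the same family, fell with TC against vehicle (-0.71 ± 0.18). Mxd1, also of that family, fell with TC added to SR-3420 (-1.46 ± 0.25, adjusted p = 0.00585, edgeR quasi-likelihood test, Benjamini-Hochberg adjusted), the largest change of the list there. Of the 10 MYC network genes tested, 1 rose and 1 fell without inhibitor, 3 rose and 3 fell under TC, and 1 rose and 1 fell under ETO, where the shares up of all genes were 4.75%, 17.3% and 12.5%. Whether Myc has a part in the rise of the 34 genes was not tested.

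**Figure D4:**
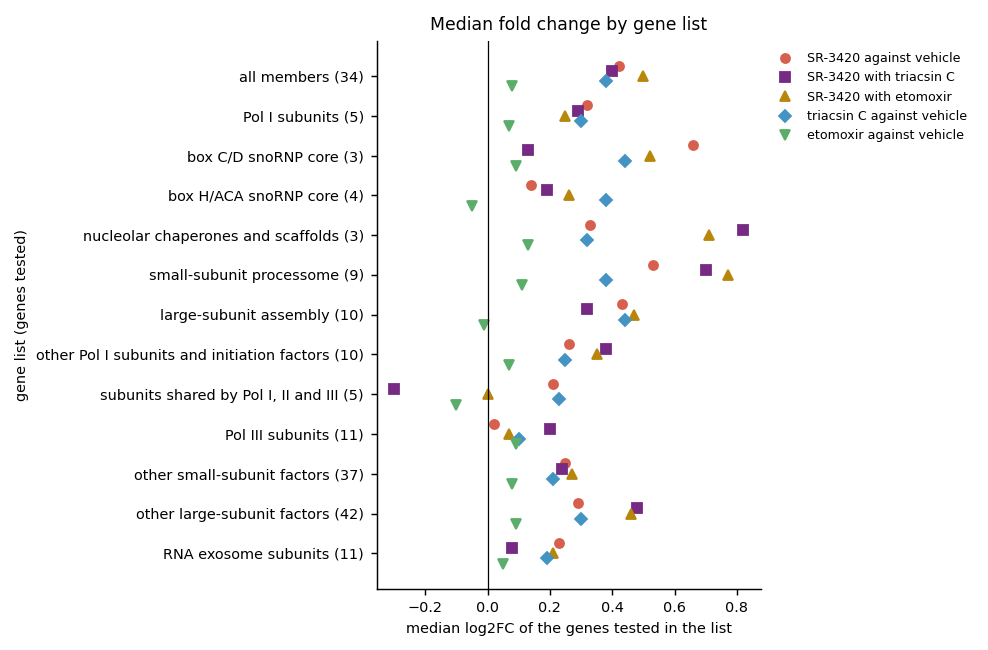
Median log2FC (horizontal axis) of each role class and pathway list in SR-3420 against vehicle, SR-3420 under TC, SR-3420 under ETO, TC against vehicle and ETO against vehicle; the line marks 0 and the number of genes tested stands beside each list. The 34 genes together have medians of 0.42, 0.40, 0.50, 0.38 and 0.08 in these comparisons, where the medians of all genes are between 0.00 and 0.07.

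Replicates differed in a way that followed base composition. In ETO, replicate 3 was the highest sample for 14 of the 19 genes at or below the all-gene median GC content and the lowest for 13 of the 15 above it. In TC+SR-3420 the numbers for replicate 3 were 13 and 10, in ETO+SR-3420 8 and 12, and in TC 6 and 10. Over the 11959 tested genes with a GC value (93.5%), those at or below the median had a median log2FC of -0.12 with SR-3420 alone and those above it 0.12. Under TC the values were 0.22 and -0.18, and under ETO 0.05 and -0.03. The low-GC and high-GC members of the 34 had medians of 0.32 and 0.46 with SR-3420 alone, 0.51 and 0.33 under TC, and 0.50 and 0.51 under ETO. Their medians were thus above 0 on both sides of the GC split in each SR-3420 comparison, while the difference between sides changed direction between comparisons. In other comparisons the sides differed in sign. For the response difference TC minus none the medians of the 34 were 0.22 and -0.22, and those of all genes 0.28 and -0.32. For ETO added to SR-3420 they were 0.40 and -0.05, and those of all genes 0.23 and -0.20. With an offset for GC content in the model, an alternative chosen after seeing the data, the genes called numbered 16 with SR-3420 alone, 22 under TC, 27 under ETO and 13 for TC against vehicle. The share of all genes called in the same fit was 22.8%, 54.5%, 45.7% and 25.2%, so calls became more frequent over all genes as well, not only among the 34.

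**Figure D5:**
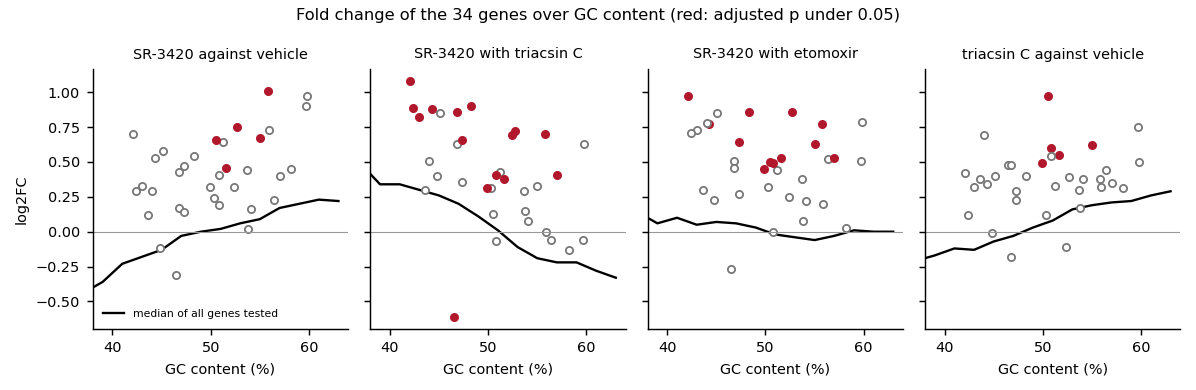
Log2FC (vertical axes) of the 34 genes against the GC percent of their longest coding transcript (horizontal axes) in SR-3420 against vehicle, SR-3420 under TC, SR-3420 under ETO and TC against vehicle; red points have an adjusted p under 0.05 by edgeR, and the line is the median of all genes tested in bins of GC. Of the 34, those at or below the all-gene median GC had 1, 9, 7 and 3 genes called up, and those above it 4, 5, 5 and 2. The medians of all genes differed between these sides too: -0.12 and 0.12, 0.22 and -0.18, 0.05 and -0.03, and -0.06 and 0.19. The share of all genes called up on each side is not given, so whether the split of calls is particular to the 34 is not shown.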

How the data were processed

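RNA-seq of 16 samples was used as the gene counts that the authors deposited. Per the paper, the authors aligned reads to mm9 with STAR 2.4.2a, kept 1 read per position and length with HOMER, and counted reads per gene with iRNA-seq. Keeping 1 read per position can compress the counts of abundant genes, which the paper does not discuss and which was not tested here. Strand use is not stated, and hg19 is listed beside mm9 as a build. All 6 groups were fitted together with edgeR 4.0.16 (limma 3.58.1, R 4.3.3) by the quasi-likelihood test after TMM scaling and filterByExpr, with Benjamini-Hochberg adjustment over the 12786 genes tested and calls at an adjusted p under 0.05. The fits were tested on simulated data, with pass limits that were loosened after a first run; there DESeq2 made more false calls than edgeR, so its counts are the more liberal, and edgeR missed most of the smaller changes put in, so a count of 0 does not show that such changes are absent. Replicates are separate experiments per the paper. CPM are counts per 1000000 of the TMM-scaled library size, and CPM per kb divides by the counted length in the table. Total counts per sample ran from 9452861 to 25670624, which limits precision most for the least abundant genes. Alternatives included DESeq2 1.42.0, other scalings and filters, a replicate block and samples left out. GC content came from the longest coding transcript in the GENCODE annotation of NCBIM37 (18849 genes, 92.9%); promoters came from RefSeq. Figures used matplotlib 3.10.9 and Python 3.11.15.

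The members and lists were chosen with earlier results of these data known. Values in every sample were given for the 2 members of each role with the largest absolute log2FC among calls in the 7 pairwise comparisons and for the member with the highest CPM per kb; pathway genes were named, with their values known, from the up to 3 called genes of each list with the largest absolute log2FC in each of those comparisons, without naming all of them, and Myc was named.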

Additional observations from a re-analysis of the deposited data

Results flagged for a closer look

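Polr3b, a subunit of Pol III, is the only gene of the lists on ribosome biogenesis, polymerases and MYC whose response to SR-3420 differed between pretreatments in edgeR's quasi-likelihood test: the difference TC minus ETO was 0.61 ± 0.15 on the log2 scale (Benjamini-Hochberg adjusted p = 0.0468). Its CPM were 42.8, 36.0 and 37.5 with TC, 51.9, 54.4 and 54.7 with TC+SR-3420, 57.7, 60.2 and 62.6 with ETO, and 52.0, 59.1 and 53.1 with ETO+SR-3420. TC samples were the lowest, and the ETO and ETO+SR-3420 ranges overlapped. Vehicle samples were at 60.4 and 57.7 and SR-3420 samples at 52.3 and 52.8, and the difference TC minus none was 0.64 (adjusted p = 0.0566, edgeR, Benjamini-Hochberg). The cause was not tested.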

How the results depend on the processing

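The median log2FC of the 34 genes kept its sign in SR-3420 against vehicle, SR-3420 under TC, SR-3420 under ETO and TC against vehicle under every alternative run, and 39 of 39 calls were kept with DESeq2's size factors, with DESeq2 and with the block, 27 with library totals, 32 without a filter, 36 with at least 10 counts in every sample and 19 when only the compared groups were fitted. With samples left out, 138 of 217 calls were kept and no sign changed. The cause of these shifts was not tested.

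Library totals moved the all-gene median to -0.12 and the share of calls that were up from 63.0% to 44.9% in SR-3420 against vehicle, where they called 3 genes with a median of 0.31. They called 2 in TC against vehicle and 1 in TC added to SR-3420, and gave medians of 0.20 for ETO added to SR-3420 and 0.14 for the response difference TC minus none. DESeq2 called 7 in TC added to SR-3420, and 9.62% of all genes. Without a filter 2 genes were called in TC against vehicle and 0 in TC added to SR-3420. Fits on the compared groups called 0 in SR-3420 against vehicle, 1 under ETO, 3 in TC against vehicle and 0 in TC added to SR-3420. For these fits, and for those with library totals or without a filter, the share of all genes called is not given. The counts by themselves do not tell fewer calls among the ribosome biogenesis genes from fewer calls over all genes. Without overlapping genes, 3 were called in TC against vehicle. With a log2FC of at least 1 in size, 1 gene was called in SR-3420 against vehicle, 1 under TC, 0 under ETO, 0 in TC against vehicle and 0 in TC added to SR-3420.

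Leaving out samples gave 0 to 1 calls in SR-3420 against vehicle (medians 0.27 to 0.47), 9 to 13 under TC, 7 to 15 under ETO (0.41 to 0.53), 1 to 3 in TC against vehicle and 0 in TC added to SR-3420 (0.32 to 0.50). Medians were 0.01 to 0.21 for ETO added to SR-3420 and -0.06 to 0.09, 0.02 to 0.23 and -0.12 to 0.04 for the response differences TC minus none, ETO minus none and TC minus ETO. The share of all genes called is not given for the fits with samples left out either.

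No label says that a replicate number marks a shared batch. Of 35 same-numbered pairs, 27 but not all correlated above 0.1 in their deviations from group means (lowest -0.29, median 0.51, highest 0.83), and 11 of 16 samples correlated best with their own number, a hint of pairing from the data that does not establish it. Counts below have the share of all genes called in the same fit in brackets. With the replicate number as a block, 14 genes were called in SR-3420 against vehicle (19.1%), 22 under TC (56.2%), 24 under ETO (45.2%), 16 in TC against vehicle (24.0%), 17 in TC added to SR-3420 (23.5%), 3 in ETO added to SR-3420 (14.4%) and 2 in the response difference TC minus none (13.1%). A GC offset, chosen after seeing the data, called 16 in SR-3420 against vehicle (22.8%), 27 under ETO (45.7%), 13 in TC against vehicle (25.2%), 17 in TC added to SR-3420 (17.4%), 2 in the response difference TC minus none (11.2%) and 1 in TC minus ETO (8.70%). The replicate block with the GC offset, also chosen after seeing the data, called 22 (32.2%), 28 (63.1%) and 29 (56.6%) in the SR-3420 comparisons without inhibitor, under TC and under ETO, 20 in TC against vehicle (35.6%), 25 in TC added to SR-3420 (30.3%), 2 in ETO added to SR-3420 (13.8%), 3 in the response difference TC minus none (20.8%) and 3 in TC minus ETO (15.8%). Calls thus became more frequent over all genes in these fits, not only among the 34.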
